A study of Mus musculus with 6 samples.

Results

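The genes described here are P2rx7 and 9 other genes of purinergic signalling, namely the receptors P2rx4, P2rx1, P2ry1, P2ry2, P2ry6 and P2ry14, the ectonucleotidases Entpd1 and Nt5e and the channel Panx1. They were taken by gene symbol, 10 of the 34741 gene names on the array, and all 10 had at least 1 probe. Total RNA came from 3 normal livers and 3 liver tumors of male C3H mice (C3H/HeN), all tumors with a mutation of Ha-ras and all animals 74 to 75 weeks old. C3H males develop liver tumors spontaneously, and both groups belonged to a control group kept on standard diet. Each sample was hybridised to 1 array with 1 dye. Expression values are ratios to the 75th percentile of an array, so that a value of 1.0 equals that percentile, and since probes differ in brightness, values of different probes give no order of abundance. The normal livers lay on one slide and the tumors on another, so that slide and tissue cannot be told apart. Between 44.7% and 48.9% of the spots of an array were well above background and no spot was saturated. The median local background was 42 to 45 intensity units on the slide of the normal livers and 22 to 23 on that of the tumors. Nothing in the labels says whether a tumor and a normal liver of the same number share an animal, and p-values measure the spread between these samples.

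Cells release ATP and other nucleotides through channels such as pannexin 1 and through vesicles. Outside the cell these act on P2X receptors, which are ATP-gated cation channels, and on P2Y receptors, which are coupled to G proteins. Surface enzymes remove them step by step, with CD39 (Entpd1) and its relatives converting ATP and ADP to AMP and CD73 (Nt5e) converting AMP to adenosine, which acts on receptors of its own or is taken up. P2rx7 differs from the other P2X receptors in needing a high concentration of ATP. It is best known in macrophages, mast cells and lymphocytes, and in macrophages it leads to assembly of the NLRP3 inflammasome. In the liver, extracellular nucleotides act on hepatocytes, Kupffer cells, cholangiocytes and stellate cells.

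P2rx7 was measured by 3 probes, designed on transcript variants 1, 4 and 2. The design places the probe of variant 1 at chr5:123134194-123134253, that of variant 4 at chr5:123105174-123105233 and that of variant 2 within chr5:123120528-123123413 of mm9. The variant 2 probe of 60 bases spreads over 2886 bp of genome, so that it crosses an intron. Its whole sequence is shown because it reads spliced transcript, and the first 30 bases of the other probes are shown so that the probes can be told apart. No base is marked.
P2rx7 variant 1 probe, first 30 bases: ttcacttctctctttaaagggaaccatctt
P2rx7 variant 4 probe, first 30 bases: ggtcaaaaagctccccaatccatgcaacaa
P2rx7 variant 2 probe: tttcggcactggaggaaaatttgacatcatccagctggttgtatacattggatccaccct

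The promoter windows of the 3 genes with the largest rise, Panx1, P2rx7 and Nt5e, are shown from RefSeq on GRCm38.p6, from 250 bases before to 50 bases after the outermost annotated start, 5′ to 3′ on the strand of the gene, with CpG dinucleotides in capitals. The P2rx7 window is chr5:122643677-122643976 (+), the Panx1 window chr9:15045429-15045728 (−) and the Nt5e window chr9:88327359-88327658 (+).
P2rx7: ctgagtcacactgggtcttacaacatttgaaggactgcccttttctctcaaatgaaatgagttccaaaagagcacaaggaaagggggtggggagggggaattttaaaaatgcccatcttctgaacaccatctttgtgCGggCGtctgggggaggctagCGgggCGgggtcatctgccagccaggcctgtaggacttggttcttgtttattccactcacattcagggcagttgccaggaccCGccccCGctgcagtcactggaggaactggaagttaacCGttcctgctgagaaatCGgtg
Panx1: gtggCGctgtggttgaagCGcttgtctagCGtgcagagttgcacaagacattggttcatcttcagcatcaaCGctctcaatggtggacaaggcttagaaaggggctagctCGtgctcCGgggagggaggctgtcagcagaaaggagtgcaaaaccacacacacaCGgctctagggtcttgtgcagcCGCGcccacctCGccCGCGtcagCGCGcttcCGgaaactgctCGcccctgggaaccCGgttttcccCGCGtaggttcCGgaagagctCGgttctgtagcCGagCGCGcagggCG
Nt5e: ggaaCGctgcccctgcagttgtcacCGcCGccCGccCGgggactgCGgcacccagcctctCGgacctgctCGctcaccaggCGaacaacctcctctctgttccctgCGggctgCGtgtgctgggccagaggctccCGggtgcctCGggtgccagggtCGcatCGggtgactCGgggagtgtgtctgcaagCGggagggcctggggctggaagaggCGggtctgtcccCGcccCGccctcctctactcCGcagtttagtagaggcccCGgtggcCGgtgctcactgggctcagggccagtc
The windows hold 8 CpGs in P2rx7, 25 in Panx1 and 23 in Nt5e, beside a median of 7 over 32851 windows of the same length. Windows with fewer CpGs made up 51.4% of all for P2rx7, 81.6% for Panx1 and 78.5% for Nt5e. The letters TGACTCA or TGAGTCA, which are each other's reverse complement and are bound by AP-1 factors, were searched on both strands. They stand 249 bases before the start of P2rx7, and such a match was present in 2 of the 9 genes with a window (P2rx7 and P2ry14) and in 5.20% of all windows. Searched likewise, the letters GGGCGG, the GC box, were present in 5 of the 9, namely P2rx7, P2rx4, P2ry1, P2ry2 and Nt5e, and in 35.7% of all windows. The letters CCGGAAG, bound by Ets factors, were present only in Panx1 among the 9, with 2 matches, and in 8.86% of all windows. TATAAA and TGACGTC, searched in the same way, were present in none of the 9 and in 13.6% and 3.21% of all windows. These matches describe letters in a window and not binding.

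Of the 10 genes, 9 were bright enough to be tested, that is, well above background on every array of one group or of both. P2rx7, P2rx4, P2ry2, Nt5e and Panx1 were up-regulated in the tumors (5 genes), P2ry1 and P2ry14 were down-regulated (2 genes), and P2rx1 and P2ry6 did not pass the test. Among all 18544 genes tested with 1 probe each, 34.2% were called by limma at an adjusted p under 0.05. Those higher in the tumors made up 13.1% of the genes tested and those lower 21.0%. The median log2 fold change was 0.71 over the 9 tested genes and -0.13 over all genes. In 7 of the 9 the tumors and normal livers did not overlap, as in 51.8% of all genes. By the methods' own criteria (a group mean above 1.0, a ratio of at least 2 and a p from the unpaired form of the methods' t-test below the usual threshold), 7 of the 10 had such a mean and 3 of these passed, P2rx7, Nt5e and Panx1, or 2 after Benjamini-Hochberg, P2rx7 and Nt5e. Of all 14852 probes with such a mean 13.7% passed, or 11.2% after Benjamini-Hochberg.

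**Figure D1:**
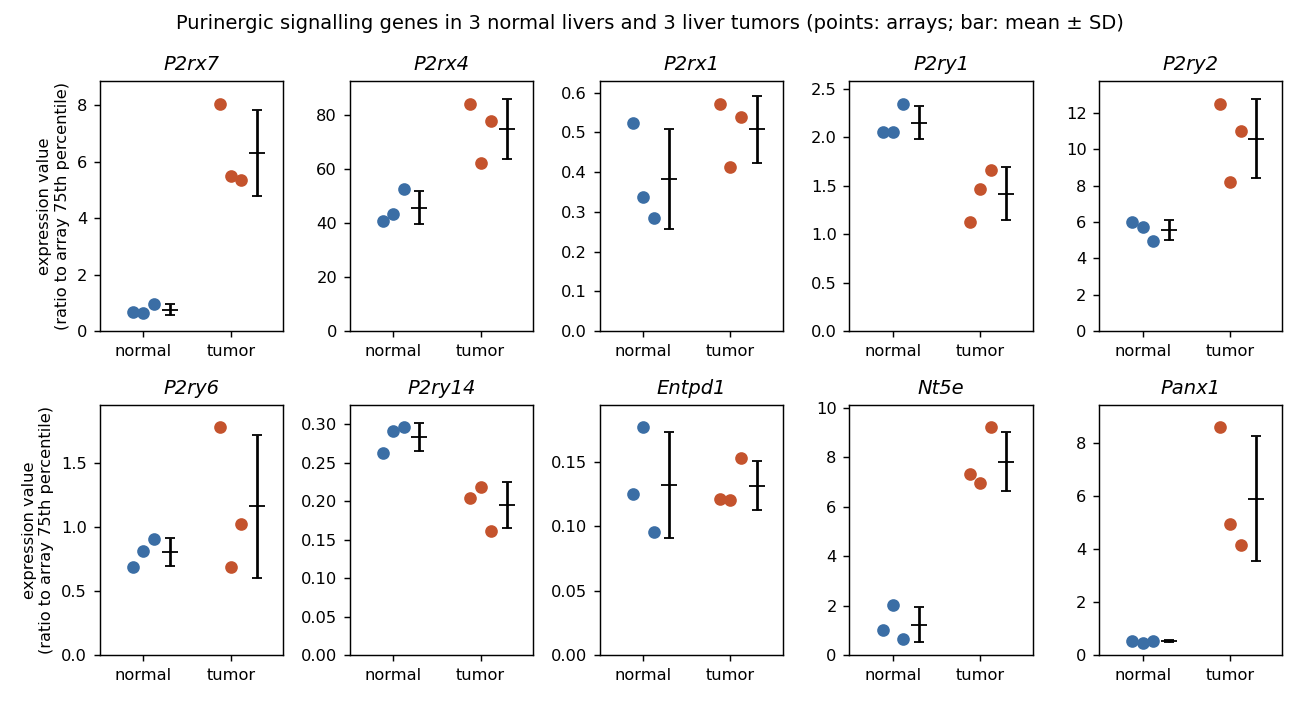
Expression values (ratio to the 75th percentile of the array, linear axes from 0) of the 10 genes in 3 normal livers (blue) and 3 liver tumors (orange), with the points of a group from left to right being replicates 1, 2 and 3 and the bar giving the mean and SD. P2rx7, Nt5e and Panx1 have the largest ratios of the group means, while P2rx1, P2ry6 and Entpd1 overlap.

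P2rx7, the ATP-gated channel that opens a large pore on prolonged stimulation, lies on chromosome 5 from 122643927 to 122692336 in GRCm38.p6. With the variant 1 probe its expression values were 0.672, 0.648 and 0.976 in normal livers 1, 2 and 3, and 8.06, 5.51 and 5.35 in tumors 1, 2 and 3. The lowest tumor was thus well above the highest normal liver. The tumors averaged 6.31 ± 1.52 (SD, n = 3) against 0.766 ± 0.183 (SD, n = 3) for normal tissue, an 8.24-fold difference between the means of the log2 values (log2 fold change 3.04, SE 0.23, adjusted p = 0.000489 in limma). Called genes with a rise of at least this size made up 1.70% of the genes tested. The study listed P2rx7 from these same samples, so its call is not independent evidence of its direction.

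The variant 4 probe gave 0.182, 0.112 and 0.190 in the normal livers, well above background in 1 of 3, and 2.39, 2.05 and 1.67 in the tumors. The measured means differed by 3.68 on the log2 scale, but 2 of the 3 normal values were not well above background. The variant 2 probe gave 0.0366, 0.0294 and 0.0263 in the normal livers, where it never stood clear of background, and 0.186, 0.206 and 0.131 in the tumors. It was therefore at least 1.32-fold higher in the tumors. This bound was taken against the dimmest signal that still counted as well above background on each normal array. Where the signal of the probe itself was larger, that signal was used. The adjusted p of 0.000712 in limma belongs to the measured difference of 2.49 on the log2 scale and does not test the bound. That difference rests on normal values that were not well above background. The probes of variants 4 and 2 passed the filter only through the tumors, where they were well above background, and their values are a description that adds no support to those of variant 1.

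**Figure D2:**
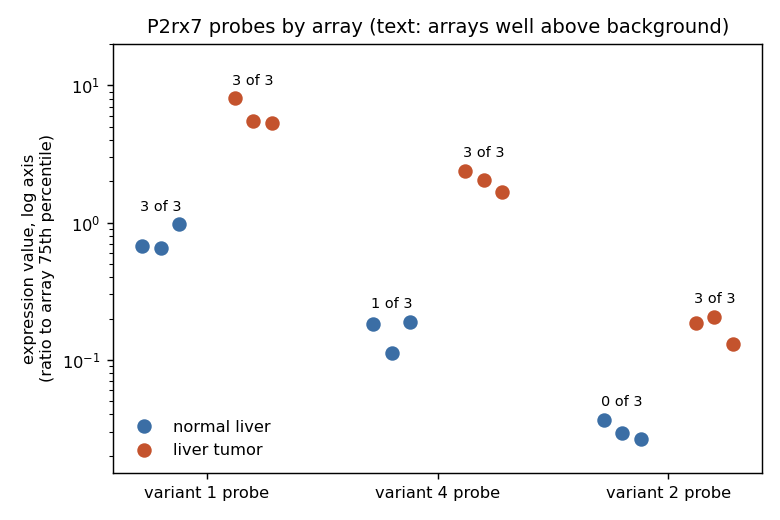
Expression values (ratio to the 75th percentile of the array, log axis) of the 3 P2rx7 probes in each normal liver (blue) and liver tumor (orange), with the number of arrays on which the probe was well above background. Tumor values are above normal values for each probe, and the variant 2 probe was well above background in 0 of 3 normal livers.

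P2rx4, an ATP-gated channel found on macrophages and endothelium among other cells, lies 15.2 kb from P2rx7 on chromosome 5, with 1 pseudogene between them. Its values were 41.0, 43.6 and 52.7 in the normal livers and 84.3, 62.4 and 78.0 in the tumors. The groups did not overlap, and the log2 fold change was 0.71 (SE 0.16, adjusted p = 0.0193). A dimmer probe of P2rx4 gave 0.970, 0.856 and 0.910 in the normal livers and 1.17, 1.01 and 1.22 in the tumors, with a log2 fold change of 0.31 that did not pass the test (adjusted p = 0.0970). The call of P2rx4 also ended without normal liver 1, normal liver 2, tumor 1 or tumor 3, with adjusted p between 0.0506 and 0.0667, with no filter on dim probes (0.0722) and in the unpaired form of the methods' t-test (0.0645). P2rx1, the P2X receptor of platelets and smooth muscle, had values of 0.525, 0.337 and 0.285 in the normal livers and 0.572, 0.413 and 0.538 in the tumors. Normal liver 1 lay within the range of the tumors, and the log2 fold change of 0.45 (SE 0.25) did not pass the test (adjusted p = 0.219).

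The genes around P2rx7 were looked at after its values had been seen. All 8 protein-coding genes within 200 kb of it were tested. P2rx4 was higher and Atp2a2, the calcium pump of the endoplasmic reticulum, was lower (log2 fold change -0.69, SE 0.18, adjusted p = 0.0281), while the other genes did not pass the test. Their log2 fold changes ran from -0.69 to 0.71, beside 3.04 for P2rx7. Within the same distance of Panx1, 2 of 5 genes were tested and 0 were called by limma, with log2 fold changes of -0.39 and 0.11. For Nt5e, 3 of 3 genes were tested and 0 were called, with log2 fold changes from -0.34 to 0.07. At an unadjusted p under 0.05 there were 3 genes near P2rx7 (Atp2a2, P2rx4 and Camkk2, a kinase, with a log2 fold change of -0.59 and adjusted p = 0.0881), 0 near Panx1 and 1 near Nt5e. Over all genes tested, 34.2% were called by limma after adjustment. No share was taken at the unadjusted threshold, so these counts mark out none of these regions.

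P2ry2, the receptor for ATP and UTP that hepatocytes use for calcium signalling, had values of 5.98, 5.74 and 4.96 in the normal livers and 12.5, 8.22 and 11.03 in the tumors. All tumors were above all normal livers (log2 fold change 0.91, SE 0.18, adjusted p = 0.0119), a call that ended in the unpaired form of the methods' t-test (adjusted p = 0.0658). P2ry6, the UDP receptor, is its neighbour on chromosome 7, 21.1 kb away. Its values were 0.691, 0.812 and 0.909 in the normal livers and 1.78, 0.684 and 1.02 in the tumors, each the mean of 10 spots. Tumor 1 alone was clearly high and tumor 2 lay below all normal livers, and the log2 fold change of 0.43 (SE 0.34) did not pass the test (adjusted p = 0.367).

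P2ry1, the ADP receptor, was lower in the tumors, with values of 2.06, 2.06 and 2.35 in the normal livers and 1.13, 1.47 and 1.66 in the tumors (log2 fold change -0.62, SE 0.17, adjusted p = 0.0333). The groups did not overlap. P2ry14, the receptor for UDP-glucose, had values of 0.264, 0.292 and 0.296 in the normal livers and 0.204, 0.219 and 0.161 in the tumors (log2 fold change -0.55, SE 0.15, adjusted p = 0.0304). It too did not overlap between the groups. Both calls were close to the threshold. That of P2ry1 ended without normal liver 1, 2 or 3, tumor 1 or tumor 2 (adjusted p 0.0573 to 0.0942), and that of P2ry14 without normal liver 1, 2 or 3, tumor 1 or tumor 3 (adjusted p 0.0525 to 0.0936). When the arrays were scaled to the spike-in RNA instead, the median of all genes moved by 0.31 on the log2 scale and both calls ended (log2 fold change -0.31 with adjusted p = 0.651 for P2ry1, and -0.24 with adjusted p = 0.734 for P2ry14).

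Panx1, the channel through which ATP leaves the cell and which associates with P2X7, had values of 0.530, 0.465 and 0.536 in the normal livers and 8.57, 4.94 and 4.14 in the tumors. The normal livers were close together, and every tumor was far above them. The log2 fold change was 3.46 (SE 0.27, adjusted p = 0.000538), the largest among the 10 genes when each was read by its brightest probe, and called genes with a rise of at least this size made up 1.31% of the genes tested. The unpaired form of the methods' t-test ended this call (adjusted p = 0.0642). Nt5e, which makes adenosine from AMP, had values of 1.0, 2.02 and 0.651 in the normal livers and 7.32, 6.96 and 9.21 in the tumors. Normal liver 2 was the highest of its group and still below the lowest tumor. The log2 fold change was 2.83 (SE 0.40, adjusted p = 0.00400), and 1.95% of the genes tested were called with a rise of at least this size. Entpd1, which acts before Nt5e in the removal of ATP, had values of 0.125, 0.177 and 0.0953 in the normal livers and 0.121, 0.120 and 0.153 in the tumors. It was well above background on 1 normal and 2 tumor arrays and was not tested, and its groups overlapped.

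Tumor 1 had the highest value of the tumors for 6 of the 10 genes, namely P2rx7, P2rx4, P2rx1, P2ry2, P2ry6 and Panx1, while it was the highest tumor for 37.3% of all genes tested. Normal liver 3 was the highest normal liver for 6 of the 10, a count read alone because the share over all genes was taken for the tumors only. The 5 called genes whose log2 values, centred on their mean over the 6 arrays, lay nearest to those of P2rx7 were Tent5a, a poly(A) polymerase (Euclidean distance 0.41), Tgfbr2, a receptor for TGF-beta (0.42), Tmem86a, a lysoplasmalogenase (0.45), Ankrd13b, an ankyrin repeat protein (0.47), and Rhoc, a small GTPase (0.48). Tgfbr2 went from a mean of 2.81 in the normal livers to 21.1 in the tumors, and Rhoc from 9.70 to 76.0. Among the other members, the distance was 0.72 for Panx1, 1.72 for Nt5e and 2.72 for P2ry2. This distance is set mainly by the size of the difference between the groups.

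The other genes of the pathway were described from 8 lists of 49 genes, all on the array. Of the 31 tested, 6 rose and 12 fell in the tumors and 13 did not pass the test, beside 13.1% and 21.0% of all genes. The 6 higher genes and 11 of the 12 lower ones, all but P2ry13, were well above background on every array. The median log2 fold change was -0.33, beside -0.13 for all genes, and 20 of the 31 did not overlap between the groups, beside 51.8% of all genes. Scaled to the spike-in RNA, 6 were higher and 4 lower, and over all genes 2513 were higher and 1071 lower, in place of 2432 and 3901. No call among these genes or the 10 above changed direction under any of the 18 alternatives tried, and 17 of the 25 calls held when each array was left out in turn. Among the pathway genes, the unpaired form of the methods' t-test ended the calls of P2ry13, Enpp3, Entpd5, Lrrc8a and Casp4, and no filter on dim probes those of P2ry13, Enpp3, Entpd5, Gjb1 and Lrrc8a.

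Among other P2X receptors, 0 of 2 tested genes were called by limma or the methods' t-test, and 0 had an unadjusted p under 0.05. P2rx2, a neuronal channel, had a log2 fold change of 0.07 (adjusted p = 0.735). P2rx3, a channel of sensory neurons, had 0.22 with its brightest probe (adjusted p = 0.300), but 2 of its 3 dimmer probes were lower in the tumors, with log2 fold changes of -0.46 (adjusted p = 0.0158) and -0.98 (adjusted p = 0.0165), and the other, too dim to be tested, overlapped between the groups. The probe at -0.98 was well above background in 3 normal livers and 2 tumors, so that it passed the filter only through the group where it was higher. The probes of P2rx3 thus disagree. Their mean was called lower by limma (log2 fold change -0.40, adjusted p = 0.0485), which makes 1 gene of this list lower when probes are averaged. That mean takes in the probe at -0.98, so both values are a description that adds no support for a fall. P2rx5 and P2rx6 were not tested. P2rx6 was well above background in 2 normal livers and 0 tumors. Its measured values were lower in the tumors, but values near background in both groups allow no firm bound on the size. Among other P2Y receptors only P2ry13, an ADP receptor of the same chromosome 3 cluster as P2ry14, was tested. It was called lower (log2 fold change -1.31, SE 0.33, adjusted p = 0.0246), but it was well above background in 3 normal livers and 1 tumor, so that it passed the filter only through the normal livers and 2 of the 3 tumor values were not well above background. This call ended without normal liver 2, normal liver 3, tumor 1 or tumor 2 (adjusted p 0.0552 to 0.0705) and with quantile normalization (0.0544). P2ry12, the ADP receptor of platelets and microglia, was well above background in 2 normal livers and 0 tumors and was not tested. Its measured values too were lower in the tumors, with no firm bound on the size. P2ry4 and P2ry10 stayed below that level on every array. Of the adenosine receptors, 0 of 2 tested were called by limma and 0 had an unadjusted p under 0.05. Adora1 (log2 fold change -0.24, adjusted p = 0.365) and Adora2a (0.44, adjusted p = 0.245) did not pass the test, and Adora2b and Adora3 were not well above background on any array.

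The other ectoenzymes that split nucleotides were divided. Entpd2, which prefers ATP to ADP, had values of 1.96, 2.10 and 2.60 in the normal livers and 14.6, 9.74 and 15.1 in the tumors, with every tumor above every normal liver (log2 fold change 2.55, SE 0.21, adjusted p = 0.000633). Enpp1, which makes AMP and pyrophosphate from ATP, had values of 0.770, 0.706 and 0.924 in the normal livers and 2.21, 1.64 and 1.89 in the tumors (log2 fold change 1.26, SE 0.16, adjusted p = 0.00315), and its other probe had a log2 fold change of 0.64 that did not pass the test (adjusted p = 0.0520). Alpl, the tissue-nonspecific alkaline phosphatase, fell by 1.24 on the log2 scale (SE 0.14, adjusted p = 0.00184). Enpp3 fell by 0.75 (SE 0.18, adjusted p = 0.0207), a call that ended without normal liver 1, normal liver 2, tumor 1 or tumor 3 (adjusted p 0.0550 to 0.0721). Entpd8, the ectonucleotidase of the bile canaliculus, also called lower, averaged 40.4 ± 1.82 (SD, n = 3) in normal tissue and 25.4 ± 2.56 (SD, n = 3) in tumor tissue (log2 fold change -0.67, adjusted p = 0.00801). Scaled to the spike-in RNA, the calls of Enpp3 and Entpd8 ended (adjusted p = 0.457 and 0.575). Entpd3 and Acpp never stood well above background in the 6 arrays.

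Of the relatives of Entpd1 inside the cell, Entpd6 rose in the tumors (log2 fold change 1.23, SE 0.10, adjusted p = 0.000644), with values of 0.463, 0.495 and 0.508 in the normal livers and 1.121, 1.142 and 1.175 in the tumors. Entpd5, an enzyme of the endoplasmic reticulum, had a log2 fold change of -0.93 (SE 0.26, adjusted p = 0.0376). Its call ended without normal liver 1, normal liver 2 or any single tumor (adjusted p 0.0502 to 0.104), and with quantile normalization (0.0561) or spike-in scaling (0.227). Entpd4 had a log2 fold change of 0.12 (adjusted p = 0.383), and Entpd7 never stood well above background.

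For adenosine transport and metabolism, 3 of the 6 tested genes were lower, 0 were higher by limma, also at an unadjusted p under 0.05, and 3 did not pass the test. Slc29a1, the equilibrative nucleoside transporter of the hepatocyte surface, had values of 36.0, 43.0 and 38.7 in the normal livers and 10.66, 14.93 and 17.6 in the tumors (log2 fold change -1.47, SE 0.20, adjusted p = 0.00363). The study listed it too from these samples. Ada, which deaminates adenosine, had values of 1.45, 1.92 and 1.92 in the normal livers and 0.716, 0.811 and 1.0 in the tumors (log2 fold change -1.07, SE 0.18, adjusted p = 0.00705). Adk, which phosphorylates adenosine to AMP, had values of 268, 319 and 290 in the normal livers and 124, 152 and 175 in the tumors (log2 fold change -0.97, SE 0.16, adjusted p = 0.00637). The groups did not overlap for any of these 3 genes. With spike-in scaling the calls of Ada (adjusted p = 0.105) and Adk (adjusted p = 0.183) ended and that of Slc29a1 held. Pnp, a nucleoside phosphorylase, and Slc28a2, a concentrative transporter, were among those that did not pass the test, and Pnp was called lower with a stricter filter on dim probes (adjusted p = 0.0461), eBayes with a trend (0.0334) or without tumor 3 (0.0158), and Slc28a2 without tumor 1 (0.0195).

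The other routes of ATP release were 2 higher and 3 lower among 5 tested. Slc17a9, the transporter that loads vesicles with nucleotides, averaged 2.22 ± 0.261 (SD, n = 3) in normal tissue and 4.57 ± 0.185 (SD, n = 3) in tumor tissue (log2 fold change 1.05, SE 0.13, adjusted p = 0.00245). Abcc6, a liver transporter through which hepatocytes release ATP, had values of 29.0, 26.6 and 22.5 in the normal livers and 4.76, 10.2 and 9.98 in the tumors (log2 fold change -1.72, SE 0.31, adjusted p = 0.00867). Gjb2, a connexin, fell by 0.63 (SE 0.11, adjusted p = 0.00859), a call that ended with spike-in scaling (adjusted p = 0.633). Lrrc8a, a subunit of the volume-regulated anion channel, had a log2 fold change of 0.48 (SE 0.13, adjusted p = 0.0306), beside 0.42 with another probe (adjusted p = 0.0502). Its call ended without any single normal liver, without tumor 1 or without tumor 2 (adjusted p 0.0573 to 0.0892). Spike-in scaling (adjusted p = 0.0846) and the replicate block in limma (adjusted p = 0.072) ended it as well. Gjb1, the main connexin of hepatocytes, was the third gene called lower (log2 fold change -0.33), and its call ended without any single array (adjusted p 0.0754 to 0.142) and with spike-in scaling (0.983), normexp (0.176), quantile normalization (0.156) or the replicate block (0.0981). The other pannexins, Panx2 and Panx3, and Gja1 never stood well above background in the 6 arrays.

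Of the genes listed around the NLRP3 inflammasome, not all of them parts of it, 1 of 7 tested was higher and 1 lower. Casp4, a protease that senses lipopolysaccharide inside the cell and cuts gasdermin D, had values of 1.121, 1.102 and 0.861 in the normal livers and 7.36, 3.91 and 3.51 in the tumors (log2 fold change 2.19, SE 0.29, adjusted p = 0.00345), a call that ended in the unpaired form of the methods' t-test (adjusted p = 0.0951). Il18, a cytokine matured by the inflammasome, had values of 4.08, 4.55 and 3.88 in the normal livers and 2.01, 2.07 and 2.61 in the tumors (log2 fold change -0.91, SE 0.14, adjusted p = 0.00576), a call that ended with spike-in scaling (adjusted p = 0.249). Nlrp3 itself did not stand well above background anywhere. The other 5 genes, the adaptor Pycard, Casp1, Nek7, Gsdmd and Il1b, did not pass the test. Casp1, the protease of the inflammasome (log2 fold change 0.66, adjusted p = 0.0588), was called higher with normexp, spike-in scaling, a stricter filter on dim probes or eBayes with a trend and without tumor 2, Gsdmd was called lower without tumor 3 and Il1b, well above background in 3 normal livers and 2 tumors, without tumor 1.

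**Figure D3:**
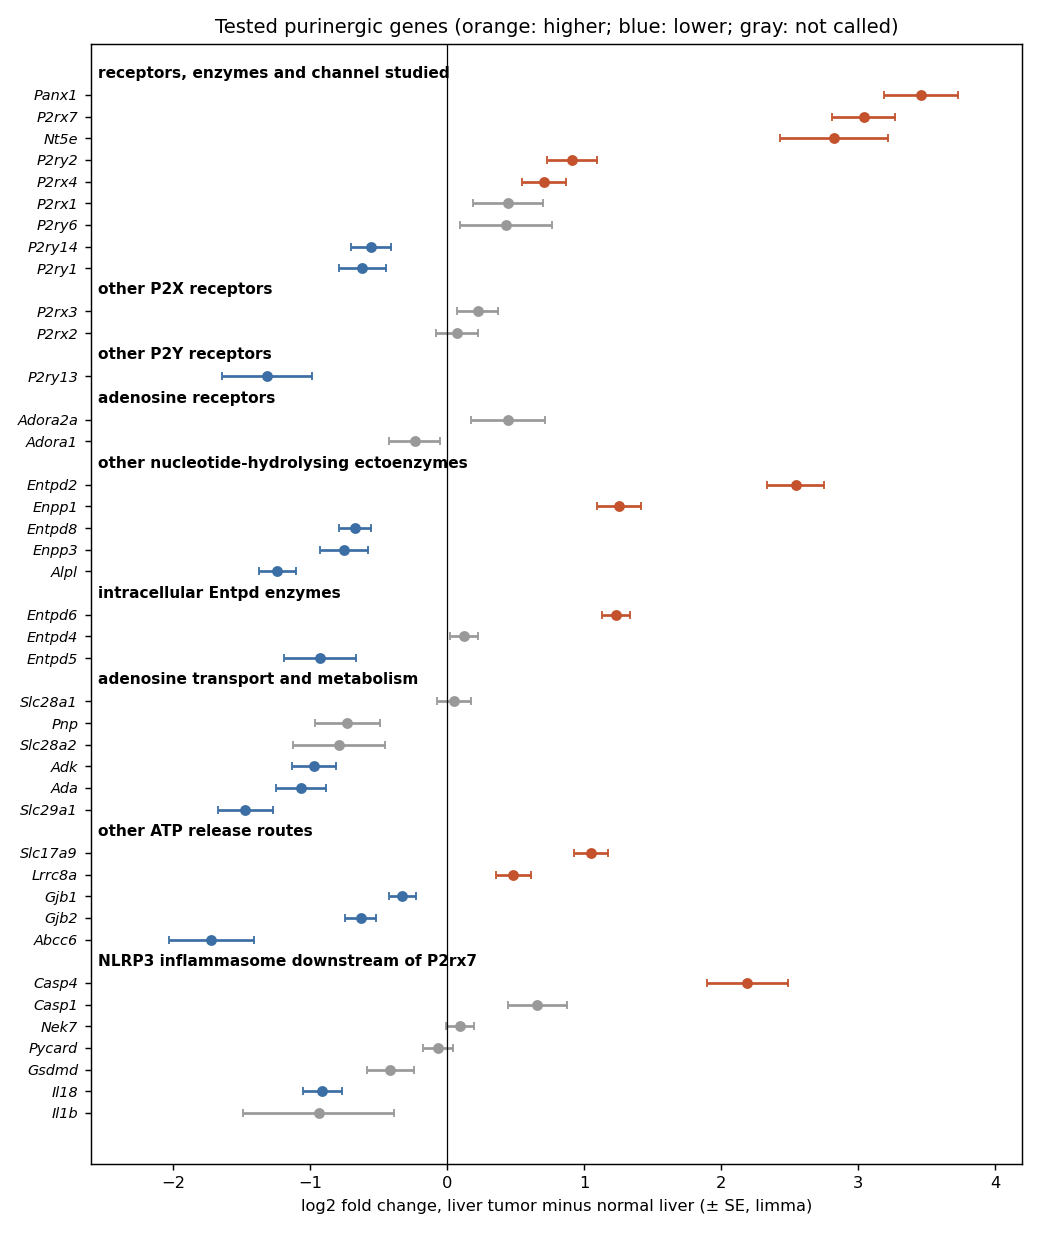
Log2 fold changes (liver tumor minus normal liver, with SE, limma, n = 3 a group) of the 9 tested genes among the 10 and of the 31 tested genes of the pathway lists, grouped by role. Panx1, P2rx7, Nt5e, Entpd2 and Casp4 lie to the right of 2.0, and Abcc6 is the farthest to the left at -1.72.

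In whole tissue, fewer cells of a type and less RNA per cell cannot be told apart, so markers of the cell types a liver sample can hold are given beside these results. The summed level of a list adds the values of its probes, and it and the brightest probe describe signal and not the abundance of one gene against another. Hepatocyte markers were bright in both groups, with Alb, the brightest, at 2447, 2449 and 1923 in the normal livers and 2123, 2221 and 2162 in the tumors. Of 10 hepatocyte markers, 1 was higher and 3 lower, and their summed level was 10530, 10070 and 9495 in the normal livers and 9409, 9278 and 9284 in the tumors. Kupffer cell and macrophage markers, for cells known to carry P2rx7, P2rx4 and P2ry6, went the other way from P2rx7. Of 11 tested, 8 were lower and 0 higher by limma, also at an unadjusted p under 0.05, with a median log2 fold change of -1.08. All 11 had negative log2 fold changes with each scaling and without each array, but the number called lower was 4 without normal liver 1, 4 without normal liver 3, 3 without tumor 2, 4 without tumor 3 and 11 without tumor 1. It was 4 with quantile normalization, 4 with spike-in scaling, 3 with no filter on dim probes, 10 with eBayes with a trend, and 2 and 0 in the unpaired and paired form of the methods' t-test. Their summed level was 154, 120 and 206 in the normal livers and 104, 62.9 and 67.7 in the tumors. Cd5l had the brightest probe of them, at 38.03, 27.6 and 56.4 in the normal livers and 26.03, 14.3 and 16.8 in the tumors. All macrophage markers were well above background, and those called lower include Clec4f, Timd4, Vsig4 and Csf1r.

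Mast cells carry P2rx7 as well, but 6 of 7 mast cell markers (Cma1, Cpa3, Fcer1a, Mcpt4, Ms4a2 and Tpsab1) never stood well above background. The summed level of the list was 0.787, 0.668 and 0.524 in the normal livers and 0.606, 0.461 and 0.271 in the tumors, and its brightest probe was that of Tpsb2, the 1 marker tested, which did not pass the test (log2 fold change -0.77, adjusted p = 0.266). Of 10 markers of T and B lymphocytes, 5 were tested and Cd4 alone was higher, joined by Cd79a without normal liver 1, with spike-in scaling, with the replicate block or with a stricter filter on dim probes. The sum of this list was 70.3, 66.5 and 66.7 in the normal livers and 245, 192 and 142 in the tumors, and the bright Cd4 probe made up most of the signal. The bright Cd4 probe gave 60.9, 58.8 and 58.8 in the normal livers and 235, 184 and 134 in the tumors, whereas another Cd4 probe was at 0.160, 0.202 and 0.157 in the normal livers and 0.117, 0.131 and 0.122 in the tumors, so that the probes disagree. Cd8a never stood well above background, Cd3e had a log2 fold change of 0.03 (adjusted p = 0.904), and the levels of the dimmer Cd4 probe were not higher in the tumors.

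Of 8 neutrophil markers 5 were tested and 0 called by limma (1 at an unadjusted p under 0.05), while spike-in scaling called S100a8 and S100a9 higher and 1 marker was lower without tumor 1. The sums were 160, 168 and 148 in the normal livers and 174, 181 and 130 in the tumors. Csf3r, at 141 to 159 in the normal livers and 124 to 173 in the tumors, made up most of the signal through its only probe, so that its brightness could not be set against another probe of the gene, and Mmp8 never stood well above background. S100a9 was higher in tumor 1, at 12.9, than in tumors 2 and 3, at 4.51 and 2.81, the normal livers being at 3.76, 4.06 and 2.43. S100a8 and Camp were highest in tumor 1 too, whereas Ly6g was lowest there (1.1, against 1.41 and 1.605 in tumors 2 and 3) and Csf3r was highest in tumor 2. Tumor 1 is also the tumor with the highest P2rx7 (variant 1 probe) and Panx1, but it was the highest tumor for 37.3% of all genes tested. A link between these values was not tested. Of 7 monocyte and dendritic cell markers on the array, 3 were tested and 0 called by limma (1 at an unadjusted p under 0.05), with Itgax, well above background in 1 normal liver and 3 tumors, called higher without tumor 3 or with spike-in scaling and Siglech lower by the mean of its probes, and sums of 222, 250 and 229 in the normal livers and 260, 269 and 231 in the tumors. Siglech made up most of the signal, through a probe that disagrees with a dimmer one (log2 fold change 0.11 against -2.32), and Xcr1 never stood well above background. Of 8 platelet markers 3 were tested and 0 called by limma or at an unadjusted p under 0.05. Pf4 had the brightest probe, Gp1ba, Gp9 and Ppbp were not well above background on any array, and the sums were 1.51, 1.65 and 1.32 in the normal livers and 1.68, 1.503 and 1.27 in the tumors.

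Of 9 endothelial markers 3 were lower and 0 higher by limma (1 higher at an unadjusted p under 0.05), or 0 lower and 1 higher, Lyve1, with spike-in scaling and 3 lower and 1 higher without normal liver 1, with a median log2 fold change of -0.01, and sums of 109, 113 and 123 in the normal livers and 84.4, 93.7 and 88.3 in the tumors. Clec4g had the brightest probe of them. Of 9 stellate cell and fibroblast markers, 2 were higher (Col1a1 and Reln) and 4 lower. Of the lower ones, Des was well above background in 3 normal livers but 2 tumors, and so was tested through the normal livers alone. Reln lost its call without normal liver 1, normal liver 3, tumor 2 or tumor 3. It also lost it with normexp, with no filter on dim probes and in both forms of the methods' t-test. Dcn was the brightest of the 9 markers, and the sums were 87.1, 86.8 and 104 in the normal livers and 29.5, 44.4 and 49.3 in the tumors. With spike-in scaling 3 of them were higher (Acta2, Col1a1 and Reln) and 2 lower, and Acta2 was called higher as well with normexp, a stricter filter on dim probes or eBayes with a trend and without tumor 3. Of 7 cholangiocyte markers 4 were tested and 0 called by limma or at an unadjusted p under 0.05 (1 lower without tumor 1 or tumor 3), with Spp1 the brightest, sums of 2.39, 2.96 and 2.35 in the normal livers and 2.05, 1.95 and 2.22 in the tumors, and Muc1 below that level throughout. Several lists held members that went both ways, so that the median of a list decides nothing about the single genes above. The highest median among the 10 lists was 0.29, for stellate cells and fibroblasts. The part of these cell types in the results was not tested.

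**Figure D4:**
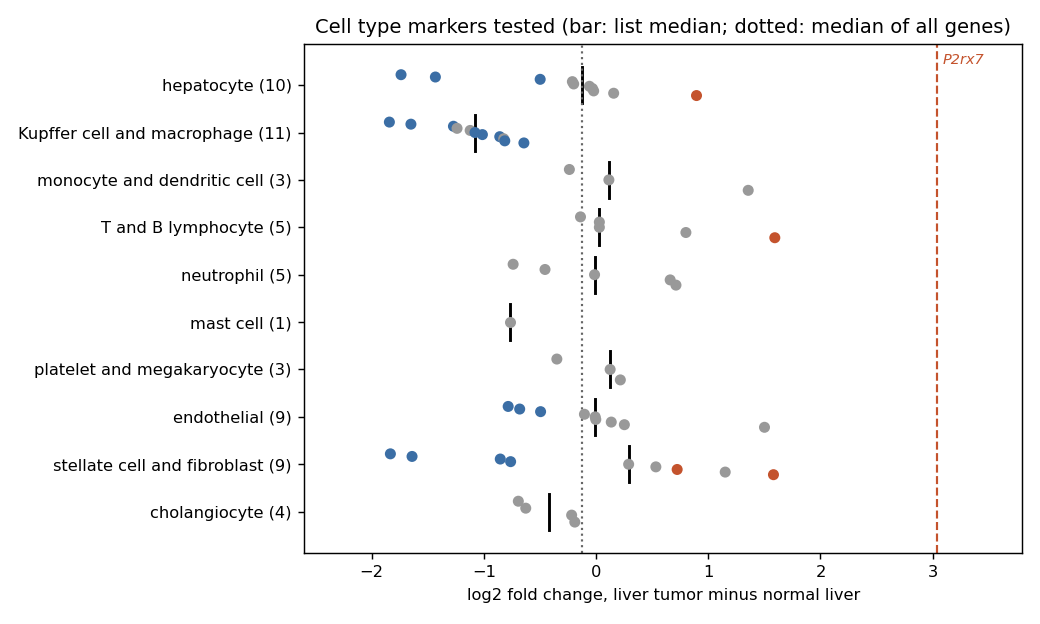
Log2 fold changes (liver tumor minus normal liver) of the tested markers of 10 cell types (number tested in brackets), with orange for markers called higher, blue for markers called lower and gray for the others, a black bar at the median of each list, a dotted line at the median of all genes (-0.13) and a dashed line at P2rx7 (3.04). All 11 macrophage markers lie left of the dotted line and none of the markers reaches P2rx7.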

How the data were processed

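Total RNA of 3 normal livers and 3 liver tumors was hybridised to SurePrint G3 Mouse arrays. For each array the authors deposited Feature Extraction output (version 10.7.3.1 in the file headers, 12.0.3.1 in the submitters' processing notes), with a background-subtracted processed intensity per spot, and a table holding the ratio of this intensity to each array's 75th percentile. Here, log2 of the deposited intensity minus log2 of that percentile over all 62976 spots was used. Control and outlier spots were left out, spots of a probe were averaged, and 24898 of 55681 probes were kept, those above background by the scanner software's test on every array of one group or of both. They were compared with limma 3.58.1 (R 4.3.3) with Benjamini-Hochberg adjustment over all of them and a threshold of 0.05, two-sided. A gene was represented by its brightest probe. Symbols came from RefSeq (GRCm38.p6) through accession for 27229 probes, symbol for 3586 and synonym for 565, and from the design for 24301.

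Members and lists were chosen with earlier results of these data known. Named are all 10 genes, up to 4 called genes of each pathway list with the largest change, the uncalled genes of lists of 5 or fewer, the brightest and the undetected markers of each cell type, and the 5 genes nearest to P2rx7. Other genes named (undetected pathway genes, Entpd8, Gjb1, Pnp, Slc28a2, Pycard, Casp1, Nek7, Gsdmd, Il1b, Atp2a2, Camkk2 and further markers) were added after their values were seen. Exact permutation tests of 3 against 3 arrays cannot go below p = 0.1. The number of arrays limits precision. The fit was tested on simulated data.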

Additional observations from a re-analysis of the deposited data

How the results depend on the processing

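The rise of P2rx7 kept its direction in all 18 alternatives and its call in 17. Leaving out single arrays gave 2.85 to 3.23, and only the paired form of the methods' t-test (replicate block, linear values, Benjamini-Hochberg) ended the call, at 3.04 with adjusted p = 0.138. That test called 0 probes, 0 members higher, 0 lower, and 0 pathway genes higher and 0 lower, where limma called 8238, 5, 2, 6 and 12. The unpaired form called 5261 probes, 2 members higher (P2rx7 and Nt5e) and 0 lower. Spike-in scaling gave 4647 probes, 0 members lower and 4 pathway genes lower, and no filter on dim probes gave 4674 probes and 0 members lower. The members called lower numbered 1 with normexp, 1 with the replicate block in limma and 1 with eBayes with a trend, P2ry14 being lost each time. Without single arrays the probes called ranged from 4954 (without normal liver 2) to 7172, the members lower from 0 to 1, the members higher from 4 to 5, and the pathway genes from 5 to 6 higher and from 8 to 11 lower.

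The replicate numbers were not used as pairs in the comparison itself. No label ties a number to an animal, deviations of same-numbered samples correlated at 0.069, 0.13 and 0.051, and not every sample correlated best with its own number, which does not settle whether they share animals. The limma fit with the replicate block called 7020 probes. Probes near background, such as those of Entpd1, Nlrp3 and 6 of the 7 mast cell markers, allow no statement on change, and 3 arrays a group on 1 slide each leave slide and tissue together.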
